A study of Mus musculus with 6 samples.

Results

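The genes of 9 core cardiac transcription factors and of the coactivator myocardin, 10 in all, were examined in the RNA-seq of adult cardiomyocytes (CMs). They were *Gata4*, *Gata6*, *Nkx2-5*, *Tbx5*, *Tbx20*, *Mef2a*, *Mef2c*, *Mef2d*, *Srf* and *Myocd*, taken by symbol from the deposited table, in which all 10 were found among 16448 genes. The study asked how loss of *Cpt1b*, the muscle isoform of the enzyme that admits long-chain fatty acids to mitochondria, alters heart muscle cells. The 3 CtrlCre and 3 Cpt1bcKO samples were CMs of C57BL/6 mice aged 8 to 12 weeks. Both genotypes carried the Cre transgene under the *Myh6* (αMHC) promoter, which is active in CMs from embryonic stages on. CtrlCre animals had wild-type *Cpt1b*, and in Cpt1bcKO animals the loxP-flanked part of *Cpt1b* was removed in CMs. Atria were cut off before the ventricles were dissociated. The study describes its replicates as separate mice.

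GATA4 and GATA6 are zinc finger proteins, NKX2-5 is a homeodomain protein, and TBX5 and TBX20 belong to the T-box family. MEF2 proteins and SRF share the MADS domain, with which they bind A/T-rich sites, and myocardin binds to SRF and strengthens its activity at CArG boxes. Together these proteins specify CMs in the embryo and keep contractile, ion channel and metabolic genes active in the adult heart, and they act on shared enhancers and on each other's genes.

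Windows from 250 bases before to 50 bases after the RefSeq start site (GRCm38.p6) were found for 6 of the 10 genes, in 8 windows because *Mef2c* has 3 start sites. The windows of *Srf*, *Mef2a*, *Mef2c* and *Mef2d* are printed because they show how unlike the starts of the MADS family genes are, and because *Srf* and *Mef2a* hold sites for their own protein families. Each runs 5′ to 3′ on the strand of the gene, and capitals mark the motifs found.
Srf, chr17:46556113-46556412, minus strand: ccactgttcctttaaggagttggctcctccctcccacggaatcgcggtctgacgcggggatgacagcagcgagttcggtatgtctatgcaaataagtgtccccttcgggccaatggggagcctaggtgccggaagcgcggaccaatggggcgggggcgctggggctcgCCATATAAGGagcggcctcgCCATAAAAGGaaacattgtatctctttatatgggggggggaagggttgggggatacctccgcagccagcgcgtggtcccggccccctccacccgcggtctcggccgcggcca
Mef2a, chr7:67372809-67373108, minus strand: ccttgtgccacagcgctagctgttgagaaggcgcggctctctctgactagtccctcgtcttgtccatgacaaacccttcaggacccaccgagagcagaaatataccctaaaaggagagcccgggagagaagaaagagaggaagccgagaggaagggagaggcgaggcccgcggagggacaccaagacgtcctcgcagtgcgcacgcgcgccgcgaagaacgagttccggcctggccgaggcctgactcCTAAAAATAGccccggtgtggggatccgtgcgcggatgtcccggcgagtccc
Mef2c, the first of its start sites, chr13:83503784-83504083, plus strand: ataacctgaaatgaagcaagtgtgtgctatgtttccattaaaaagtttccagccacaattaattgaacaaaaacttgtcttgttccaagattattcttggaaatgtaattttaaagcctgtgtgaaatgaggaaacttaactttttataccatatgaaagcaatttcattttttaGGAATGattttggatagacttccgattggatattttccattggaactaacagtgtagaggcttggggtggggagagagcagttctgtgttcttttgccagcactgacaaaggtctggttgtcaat
Mef2d, chr3:88142122-88142421, plus strand: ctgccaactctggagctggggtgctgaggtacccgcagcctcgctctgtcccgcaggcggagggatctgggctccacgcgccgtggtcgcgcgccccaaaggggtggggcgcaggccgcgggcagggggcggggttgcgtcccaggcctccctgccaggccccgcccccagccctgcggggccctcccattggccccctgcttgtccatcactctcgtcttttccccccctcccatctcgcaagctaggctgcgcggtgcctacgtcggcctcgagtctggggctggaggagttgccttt

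The motifs searched, on both strands, were the CArG box, the MEF2 site, the GATA site (AGATAA, with A or T first and A or G last), the NKX2-5 site TNAAGTG, the T-box site AGGTGTGA and the TEAD site GGAATG. CArG boxes and MEF2 sites can overlap each other in A/T-rich sequence. The *Srf* window held 2 CArG boxes, from −82 to −73 and from −62 to −53 relative to the start site, whereas 1.63% of all 32851 windows held at least 1. A MEF2 site lay across the start site of *Mef2a*, from −2 to 8, and 3.19% of all windows held this motif. The first *Mef2c* window held a TEAD site from −75 to −70, a motif found in 14.7% of windows. No match of the GATA, NKX2-5 or T-box motifs were found in the 8 windows, against 29.8%, 11.5% and 1.28% of all windows. In base composition the first *Mef2c* window, with 35.7% G and C and 1 CpG, stood at one end, and *Mef2d*, with 72.0% and 24 CpGs, at the other. *Mef2a* had 62.3% and 27 CpGs, and *Srf* had 63.3% and 25. The median window of all genes had 52.7% G and C and 7 CpGs. A match is a description of these letters, and binding was not measured here.

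The deposited values are normalized counts, in which read counts were scaled by sample and then rounded to whole numbers. They summed to 13665354 to 16243545 in CtrlCre and 13393411 to 31722217 in Cpt1bcKO samples, and mitochondrially encoded and rRNA genes made up 74.8 to 78.1% and 76.5 to 89.5% of these sums. In the 5 samples in which the spacing of low values was resolved, a single read was worth 0.682 to 1.29 units and the reads on genes, in units of 1e6, numbered 14.9 to 24.5. The targeted gene *Cpt1b* had 1861, 893 and 1443 normalized counts in CtrlCre and 211, 353 and 285 in Cpt1bcKO samples. Replicate 1 of each group carried *Xist* (957 and 1080) and no *Ddx3y*, and the other samples carried *Ddx3y*, so the groups were alike in their mix of sexes. Markers of the labelled cell type were abundant, with 104814 to 149899 normalized counts of *Myh6* in CtrlCre and 82872 to 93434 in Cpt1bcKO samples. Of 10 CM markers, all had a negative log2 fold change, 2 of them with an unadjusted *P* value below 0.05 in limma. Summed CM markers ranged from 556724 to 647935 in CtrlCre and from 364395 to 585124 in Cpt1bcKO samples. *Myl7*, an atrial light chain, was at 2 to 19 in all samples. Markers of other cells were present, with sums over 8 endothelial markers of 1241 to 2620 in CtrlCre and 2308 to 2639 in Cpt1bcKO samples, and over 6 pericyte markers of 591 to 1783 and 1010 to 1440. All 8 endothelial markers had a positive log2 fold change, 1 of them (*Tie1*) with an unadjusted *P* value below 0.05 in limma, and 0 of the 5 pericyte markers tested had one. Their part in the results was not tested.

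*Tbx5*, *Myocd*, *Gata6*, *Mef2a* and *Mef2c* were lower in Cpt1bcKO CMs with no overlap between the groups, and *Gata4* was higher with no overlap. *Mef2d*, *Nkx2-5*, *Tbx20* and *Srf* overlapped between the groups, with 95% intervals that included 0. The log2 fold change (log2FC, Cpt1bcKO minus CtrlCre on the scale of log2(value + 1)) was tested with limma in the 11364 genes with 3 or more samples at 10 or above, a filter that all 10 factors passed. In limma, 0 of the 10 factors had an adjusted *P* value below 0.05, against 1.57% of all genes tested (0.906% lower, 0.66% higher), and the smallest adjusted *P* value among the factors was 0.0737. For 6 of the 10 the unadjusted *P* value was below 0.05 (5 lower, 1 higher), against 13.9% of all genes (7.22% lower, 6.66% higher). The groups did not overlap in these same 6 genes (5 lower, 1 higher), against 18.7% of all genes (9.6% lower, 9.13% higher). The median log2FC of the 10 was −0.26, and that of all genes tested was −0.0013. When a replicate block was added to the model, 3 of the 10 factors and 603 of the 11364 genes had an adjusted *P* value below 0.05 in limma. Without replicate 1 of both groups, 0 factors and 246 genes did. In these bulk samples, fewer cells of a type and less RNA per cell cannot be told apart.

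**Figure D1:**
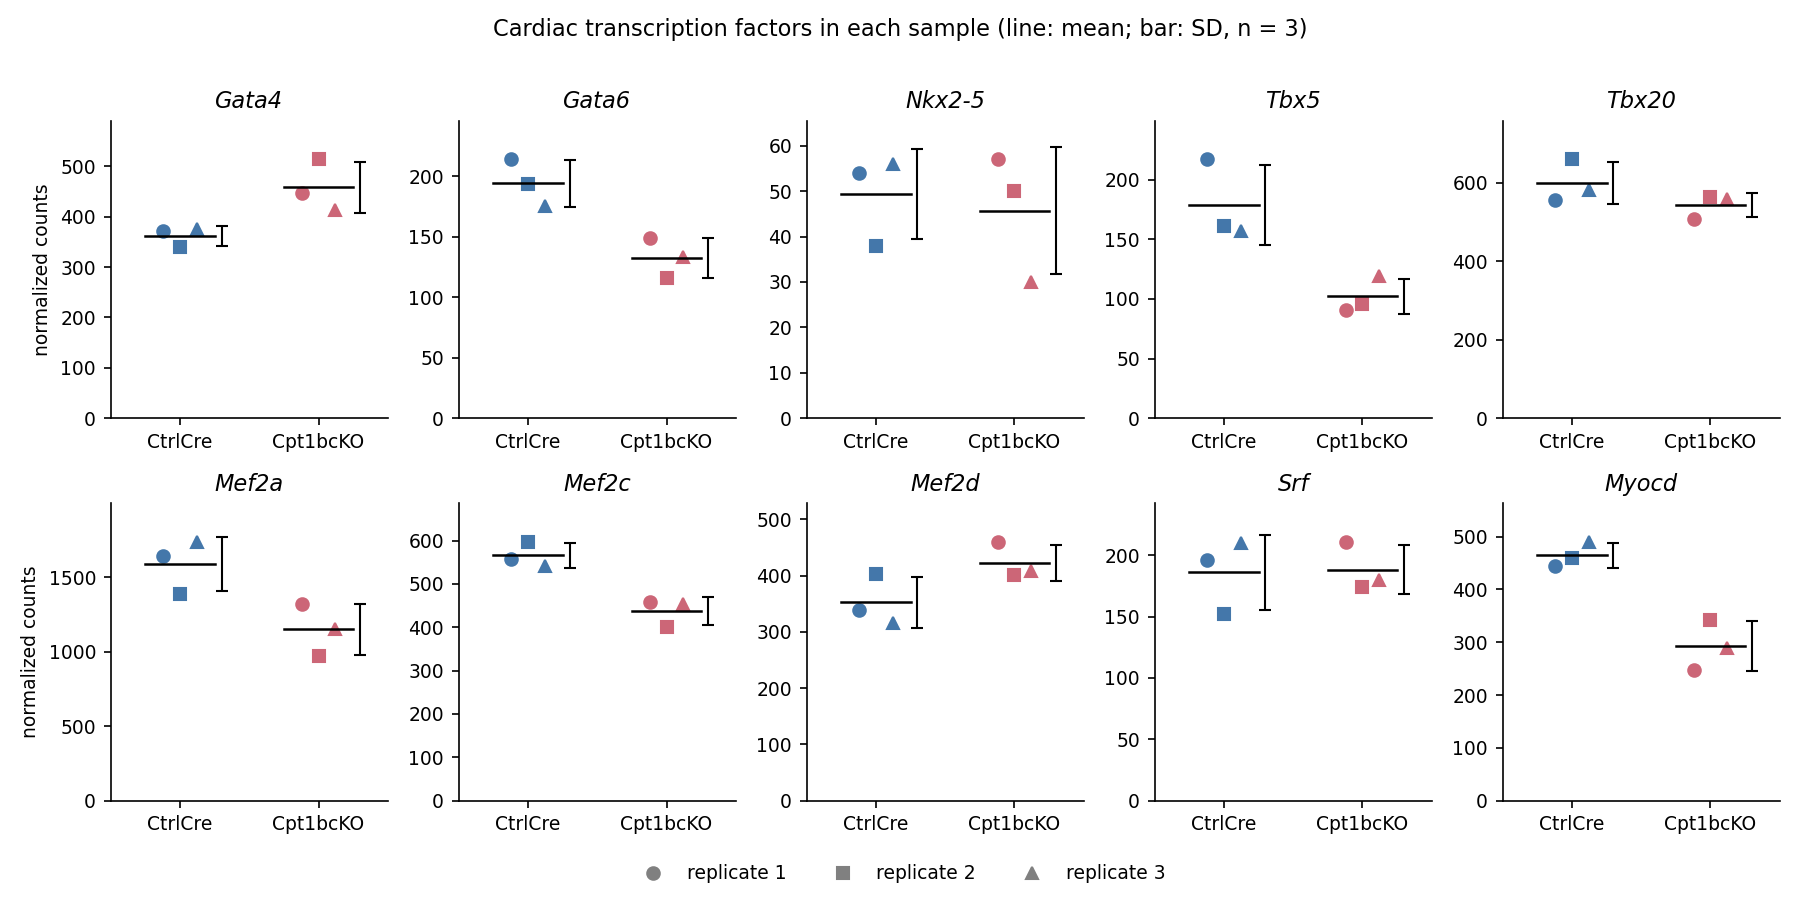
Normalized counts of the 10 factors (vertical axes, each from 0) in the 3 CtrlCre (blue) and 3 Cpt1bcKO (red) samples, with the mean as a line, the SD as a bar and the replicate number as the symbol. *Tbx5*, *Myocd*, *Gata6*, *Mef2a* and *Mef2c* lie lower and *Gata4* higher in every Cpt1bcKO sample than in any CtrlCre sample.

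The GATA genes differed in opposite directions. *Gata4* (ENSMUSG00000021944, chr14:63198922-63245271, GRCm38, minus strand), which is needed for heart tube formation and for the growth and survival of adult CMs, had 372, 339 and 375 normalized counts in CtrlCre and 447, 514 and 414 in Cpt1bcKO samples. Every Cpt1bcKO sample was above every CtrlCre sample, and the nearest ones were 10.4% apart. The log2FC of *Gata4* was 0.34 (standard error 0.147, 95% interval 0.0084 to 0.66, unadjusted *P* = 0.0453 and adjusted *P* = 0.348 in limma). Fits that left out a single sample gave 0.25 to 0.41 for *Gata4*, with an unadjusted *P* value in limma of up to 0.171 (without Cpt1bcKO replicate 2). *Gata4* is also expressed by cardiac fibroblasts, and all 7 tested of 8 fibroblast markers had an unadjusted *P* value below 0.05 in limma in the same direction. The summed fibroblast markers ranged from 498 to 785 in CtrlCre and from 1108 to 1338 in Cpt1bcKO samples, and none of the 8 was at 0. The part of these cells in the *Gata4* result was not tested.

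*Gata6* (ENSMUSG00000005836, chr18:11052510-11085635, plus strand), which overlaps with *Gata4* in its role in the myocardium, had 214, 194 and 175 normalized counts in CtrlCre and 149, 116 and 133 in Cpt1bcKO samples. The highest Cpt1bcKO sample was 14.9% below the lowest CtrlCre sample. Its log2FC was −0.55 (standard error 0.175, 95% interval −0.94 to −0.16, unadjusted *P* = 0.0102 and adjusted *P* = 0.186 in limma). The noncoding gene 1010001N08Rik starts on the opposite strand. As placed in the GENCODE vM21 annotation, it shares 58 bases with *Gata6* at the deposited coordinates. In GENCODE vM21 itself *Gata6* starts at 11052064 rather than 11052510, so the shared stretch may be longer. 1010001N08Rik had 30, 33 and 47 normalized counts in CtrlCre and 26, 20 and 19 in Cpt1bcKO samples, lower in each Cpt1bcKO sample, with a log2FC of −0.72 (unadjusted *P* = 0.0370 and adjusted *P* = 0.317 in limma). Reads on several genes were left out of the counting. Whether strand was used in counting is not given in the sources used here. It is therefore not known whether reads in the shared stretch were left out or counted by strand.

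*Nkx2-5* and the T-box genes are partners in chamber formation and in the conduction system. *Nkx2-5* (ENSMUSG00000015579, chr17:26838664-26841565, minus strand) was the factor with the lowest values, 54, 38 and 56 normalized counts in CtrlCre and 57, 50 and 30 in Cpt1bcKO samples. The groups overlapped, with Cpt1bcKO samples at both ends of the range. Its log2FC of −0.14 had a 95% interval from −0.80 to 0.52 (adjusted *P* = 0.876 in limma), which leaves room for a change of the size seen in *Myocd*. The sign of *Nkx2-5* rested on 1 sample, as the value was 0.13 without Cpt1bcKO replicate 3.

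*Tbx5* (ENSMUSG00000018263, chr5:119834663-119885219, plus strand), the gene mutated in Holt–Oram syndrome, showed the largest difference of the 10 factors with all samples in. It had 217, 161 and 157 normalized counts in CtrlCre and 91, 96 and 119 in Cpt1bcKO samples. The Cpt1bcKO mean was 57.2% of the CtrlCre mean, and the highest Cpt1bcKO sample was 24.2% below the lowest CtrlCre sample. The log2FC was −0.79 (standard error 0.199, 95% interval −1.24 to −0.35, unadjusted *P* = 0.00242 and adjusted *P* = 0.0921 in limma). CtrlCre replicate 1 was the highest sample, and without replicate 1 of both groups the log2FC of *Tbx5* was −0.57 (adjusted *P* = 0.182 in limma). In that fit *Myocd*, at −0.59, had the larger difference. The same held without CtrlCre replicate 1 (−0.71 for *Myocd* against −0.65) and without Cpt1bcKO replicate 2 (−0.79 against −0.76). *Tbx5* is more abundant in atria than in ventricles. Of 8 atrial markers, a list that holds *Tbx5* itself, 6 were in the table and 5 were tested, and their sum ranged from 380 to 503 in CtrlCre and from 664 to 867 in Cpt1bcKO samples, with *Tbx5* as its largest term in every CtrlCre sample and *Nppa* in every Cpt1bcKO sample. *Myl7* and *Myl4* had 2 to 19 and 16 to 102 normalized counts, with overlapping groups.

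*Tbx20* (ENSMUSG00000031965, chr9:24718138-24774303, minus strand), which maintains adult CM function, had 556, 660 and 583 normalized counts in CtrlCre and 509, 564 and 558 in Cpt1bcKO samples. The groups overlapped, and the log2FC was −0.14 with a 95% interval of −0.45 to 0.17 (adjusted *P* = 0.707 in limma). Within each sample, *Tbx5* amounted to 0.391, 0.245 and 0.271 of the *Tbx20* value in CtrlCre and to 0.180, 0.172 and 0.215 in Cpt1bcKO samples. Such a ratio of values inside a library does not depend on how libraries are scaled to each other. The log2 ratio differed by −0.65 between groups that did not overlap (exact permutation test, two-sided, *P* = 0.10, the smallest that 3 samples against 3 allow).

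**Figure D2:**
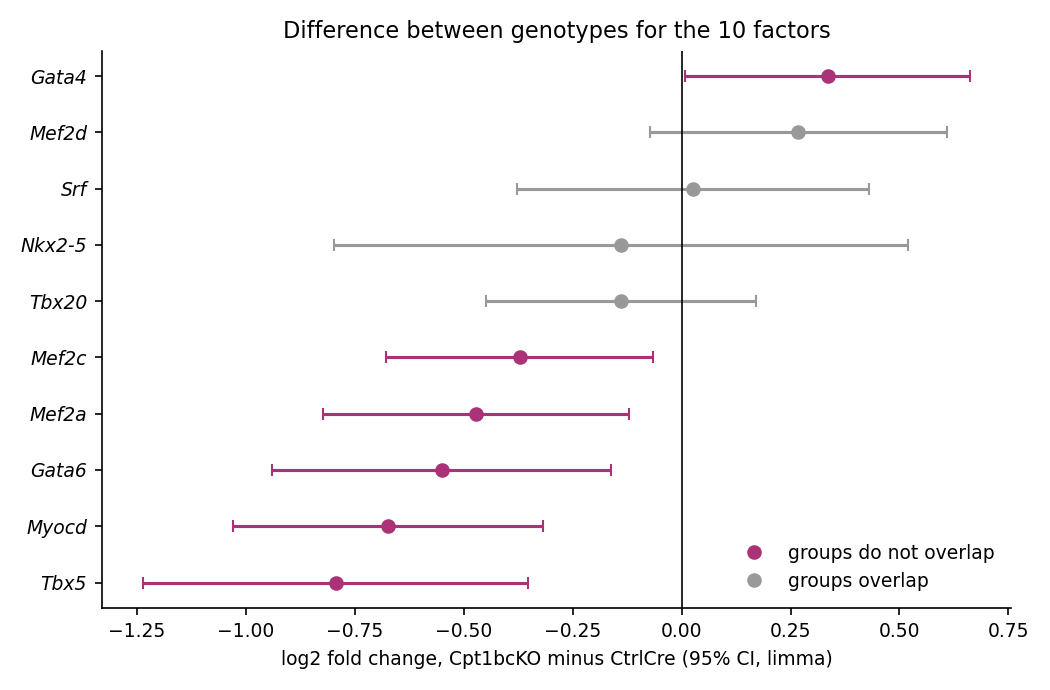
Log2FC of each factor, Cpt1bcKO minus CtrlCre (horizontal axis), with its 95% interval from limma. Points in purple are genes whose groups did not overlap, and the interval of *Gata4* ends just above 0 on its lower side whereas those of *Mef2d*, *Srf*, *Nkx2-5* and *Tbx20* include 0.

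The MEF2 genes, whose proteins relay calcium signals to muscle genes and are held in check by class IIa histone deacetylases, did not differ in 1 direction. *Mef2a* (ENSMUSG00000030557, chr7:67231163-67372858, minus strand), the main form in postnatal heart, had 1642, 1386 and 1737 normalized counts in CtrlCre and 1320, 973 and 1153 in Cpt1bcKO samples. The groups did not overlap, but CtrlCre replicate 2 and Cpt1bcKO replicate 1 were only 4.76% apart. Its log2FC was −0.47 (standard error 0.158, 95% interval −0.82 to −0.12, unadjusted *P* = 0.0132 and adjusted *P* = 0.205 in limma). The unadjusted *P* value of *Mef2a* in limma was 0.0598 without CtrlCre replicate 3 and 0.0699 without Cpt1bcKO replicate 2. *Lysmd4* lies on the opposite strand across part of *Mef2a* and had 21 to 42 normalized counts, and the provisional gene models Gm44667 and Gm44668 inside *Mef2a* had means of 117 and 37.7. None of these 3 partners had an unadjusted *P* value below 0.05 in limma.

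*Mef2c* (ENSMUSG00000005583, chr13:83504034-83667080, plus strand), required for right ventricle and outflow tract development, had 558, 597 and 542 normalized counts in CtrlCre and 458, 401 and 453 in Cpt1bcKO samples. All Cpt1bcKO samples were at least 15.5% below the lowest CtrlCre sample. The log2FC of *Mef2c* was −0.37 (standard error 0.138, 95% interval −0.68 to −0.066, unadjusted *P* = 0.0218 and adjusted *P* = 0.254 in limma). The unadjusted one was 0.0756 without CtrlCre replicate 2 and 0.0861 without Cpt1bcKO replicate 2 in limma. With values scaled to the total without mitochondrially encoded and rRNA genes, which moves the median log2FC of all genes to 0.11, it was −0.26 for *Mef2c* (unadjusted *P* = 0.0913 in limma).

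*Mef2d* (ENSMUSG00000001419, chr3:88142372-88172086, plus strand), which takes part in the stress response of the adult heart, had 338, 403 and 316 normalized counts in CtrlCre and 460, 401 and 408 in Cpt1bcKO samples. Only CtrlCre replicate 2 reached into the range of the Cpt1bcKO samples. Its log2FC was 0.27 with a 95% interval of −0.073 to 0.61 (unadjusted *P* = 0.111 and adjusted *P* = 0.471 in limma). With the same scaling to the total it was 0.38 (unadjusted *P* = 0.0364 in limma). The ratio of *Mef2a* to *Mef2d* values within a sample was 4.85, 3.43 and 5.48 in CtrlCre and 2.87, 2.42 and 2.82 in Cpt1bcKO samples. That of *Mef2c* to *Mef2d* was 1.65, 1.48 and 1.71 in CtrlCre and 0.996, 1 and 1.11 in Cpt1bcKO samples. Both log2 ratios separated the groups, with differences of −0.74 and −0.64 (exact permutation test, two-sided, *P* = 0.10 each). The ratio of *Mef2a* to *Mef2c* overlapped between the groups (difference −0.10 on the log2 scale, exact permutation test, *P* = 0.60). Per kilobase of exon, *Mef2d* made up 29.0% ± 4.18 (SD, *n* = 3) of the summed level of the 3 MEF2 genes in CtrlCre and 40.1% ± 1.84 (SD, *n* = 3) in Cpt1bcKO samples, while *Mef2a* made up 53.2% ± 5.33 and 44.1% ± 2.15 (SD, *n* = 3 each). These shares rest on the length used. With the longest transcript of each gene, a length chosen after seeing the data, *Mef2d* made up 14.8% ± 2.61 and 22.1% ± 1.34 and *Mef2a* 64.7% ± 4.59 and 58.2% ± 2.08 (SD, *n* = 3 each).

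*Srf* (ENSMUSG00000015605, chr17:46546839-46556162, minus strand), whose promoter holds the CArG boxes printed above, had 196, 152 and 210 normalized counts in CtrlCre and 211, 174 and 180 in Cpt1bcKO samples. The groups overlapped over most of their range. Gm26904, a lincRNA gene on the opposite strand, had at most 2. The log2FC of *Srf* was 0.026 with a 95% interval of −0.38 to 0.43 (adjusted *P* = 0.969 in limma), and its sign turned when CtrlCre replicate 2 (−0.11) or Cpt1bcKO replicate 1 (−0.058) was left out.

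*Myocd* (ENSMUSG00000020542, chr11:65176561-65269989, minus strand), which encodes the SRF coactivator myocardin, had 444, 459 and 490 normalized counts in CtrlCre and 248, 342 and 289 in Cpt1bcKO samples. The highest Cpt1bcKO sample lay 23.0% below the lowest CtrlCre sample, and the mean was 63.1% of that of CtrlCre. The log2FC of *Myocd* was −0.67 (standard error 0.160, 95% interval −1.03 to −0.32, unadjusted *P* = 0.00169 and adjusted *P* = 0.0737 in limma). It stayed between −0.79 and −0.56 when a sample, or replicate 1 of both groups, was left out. Myocardin is also made by smooth muscle cells. All 7 smooth muscle markers were in the table and 4 were tested, and 1 of them, *Acta2*, had an unadjusted *P* value below 0.05 in limma, with 526, 244 and 391 normalized counts in CtrlCre and 230, 134 and 132 in Cpt1bcKO samples, lower without overlap as was *Myocd*. Their sum ranged from 6579 to 9899 in CtrlCre and from 6834 to 9417 in Cpt1bcKO samples, most of it from *Des* (5956 to 9118 over all samples), which CMs also express. *Myh11* had 14, 117 and 217 and then 155, 123 and 92 with overlapping groups, and *Smtn* had 231 to 432. *Cnn1* and *Lmod1* had at most 17 normalized counts, and *Tagln* was at 0 to 5. The part of smooth muscle cells in the *Myocd* result was not tested. The ratio of *Myocd* to *Srf* values within a sample was 2.26, 3.01 and 2.33 in CtrlCre and 1.17, 1.96 and 1.6 in Cpt1bcKO samples. This log2 ratio differed by −0.70 between groups that did not overlap (exact permutation test, two-sided, *P* = 0.10).

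With all samples in, *Gata4* and *Gata6* gave the largest shift of the 6 ratios computed. *Gata4* stood at 1.73, 1.74 and 2.14 times the *Gata6* value in CtrlCre samples and at 2.99, 4.40 and 3.10 times in Cpt1bcKO samples. The log2 ratio was 0.90 ± 0.171 in CtrlCre and 1.78 ± 0.309 in Cpt1bcKO samples (SD, *n* = 3 each), a difference of 0.89 without overlap (exact permutation test, two-sided, *P* = 0.10). Without Cpt1bcKO replicate 2 this difference was 0.71, and that of *Myocd* to *Srf* was larger in size (−0.87). Without CtrlCre replicate 2 it was 0.84, and that of *Mef2a* to *Mef2d* was larger in size (−0.94). Of the 6 ratios, 5 separated the groups, and each of these had an adjusted *P* value of 0.12 over the 6. The pairs were chosen with the values of their genes known, so the ratios restate these values free of scaling and are not separate evidence.

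**Figure D3:**
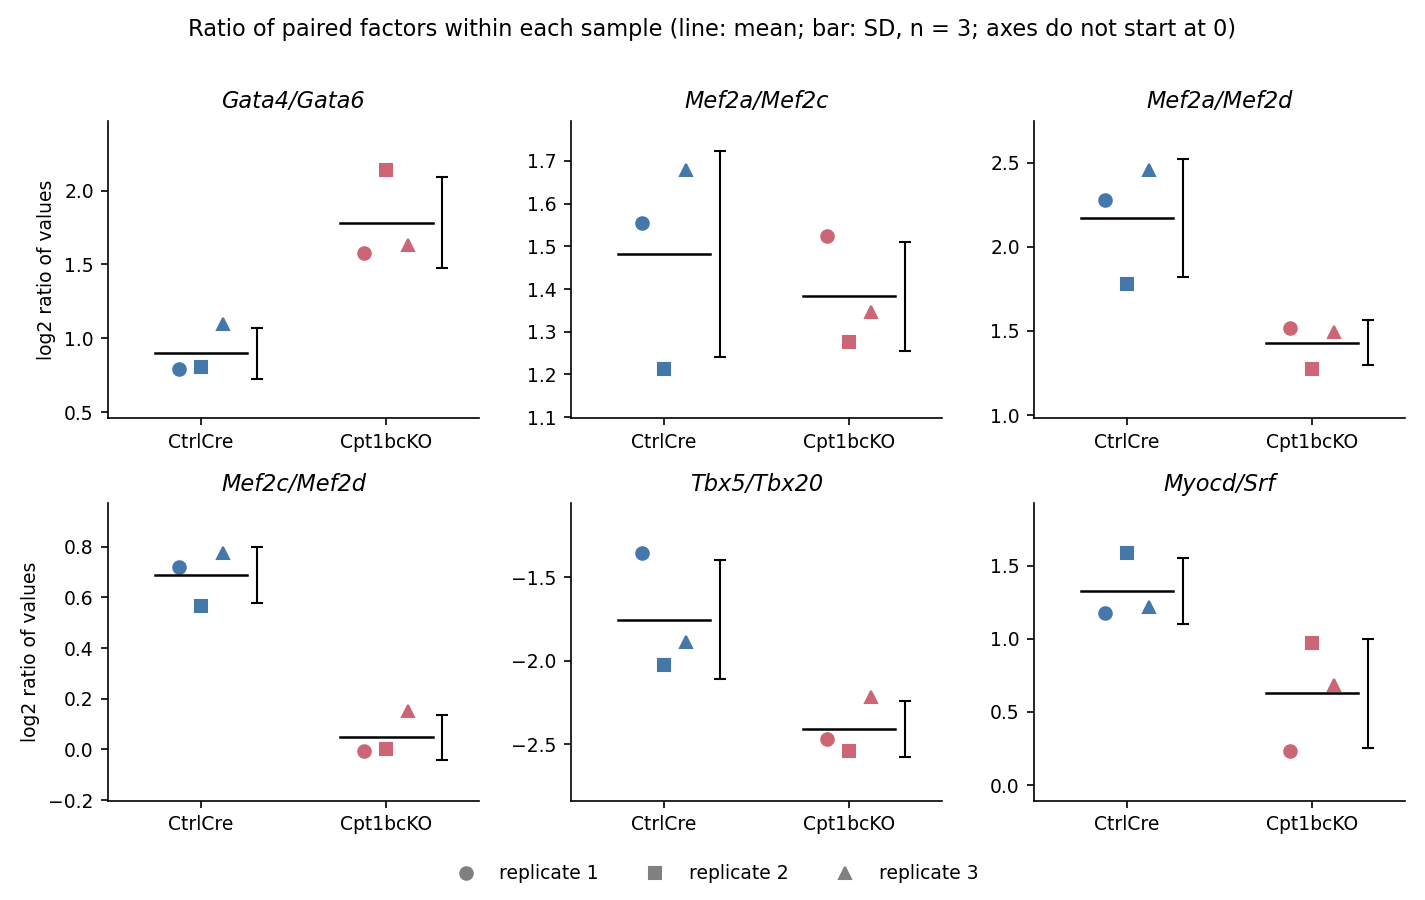
Log2 ratio of the values of paired factors within each sample (vertical axes, not from 0) in CtrlCre (blue) and Cpt1bcKO (red) samples, with the mean as a line and the SD as a bar. The groups are separate in every pair but *Mef2a* to *Mef2c*.

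Levels were compared between genes per kilobase of exon, with union exon lengths from GENCODE vM21 for GRCm38. For *Gata4*, *Gata6*, *Nkx2-5*, *Tbx5* and *Srf* the gene coordinates in this release differ from the deposited ones. The lengths of these genes may therefore not be those on which reads were counted. In CtrlCre CMs the order from high to low was *Mef2a* (108 ± 12.4 normalized counts per kb, SD, *n* = 3), *Gata4* (92.7 ± 5.12), *Myocd* (72.3 ± 3.65), *Srf* (64.3 ± 10.5), *Mef2d* (58.9 ± 7.56), *Tbx20* (49.98 ± 4.50), *Tbx5* (38.1 ± 7.18), *Mef2c* (36.0 ± 1.80), *Gata6* (29.9 ± 3.0) and *Nkx2-5* (28.7 ± 5.74). Neighbours in this order overlapped in their ranges apart from *Gata4* with *Myocd* and *Mef2c* with *Gata6*. In Cpt1bcKO CMs *Gata4* came first with 117 ± 13.1 normalized counts per kb, above *Mef2a* (78.2 ± 11.8) in every sample. *Myocd* (45.6 ± 7.34) then lay below *Srf* (65.1 ± 6.86) in every Cpt1bcKO sample, whereas in CtrlCre it lay above *Srf* within each sample, with overlapping ranges. *Tbx5* (21.8 ± 3.19) and *Gata6* (20.4 ± 2.54) came last and overlapped. These levels rest on the lengths used. With the longest transcript of each gene in place of all exons, *Mef2a* was first in both groups (287 and 207 normalized counts per kb) and *Gata4* second (106 and 135). This turns their order in Cpt1bcKO CMs, because most of the 14681 exonic bases of *Mef2a* lie outside the longest transcript. With this length *Mef2c* moved from place 8 to 4 in CtrlCre CMs (90.1). In Cpt1bcKO CMs *Gata6* (35.1) was then at place 8, *Nkx2-5* (29.9) at 9 and *Tbx5* (25.9) at 10.

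**Figure D4:**
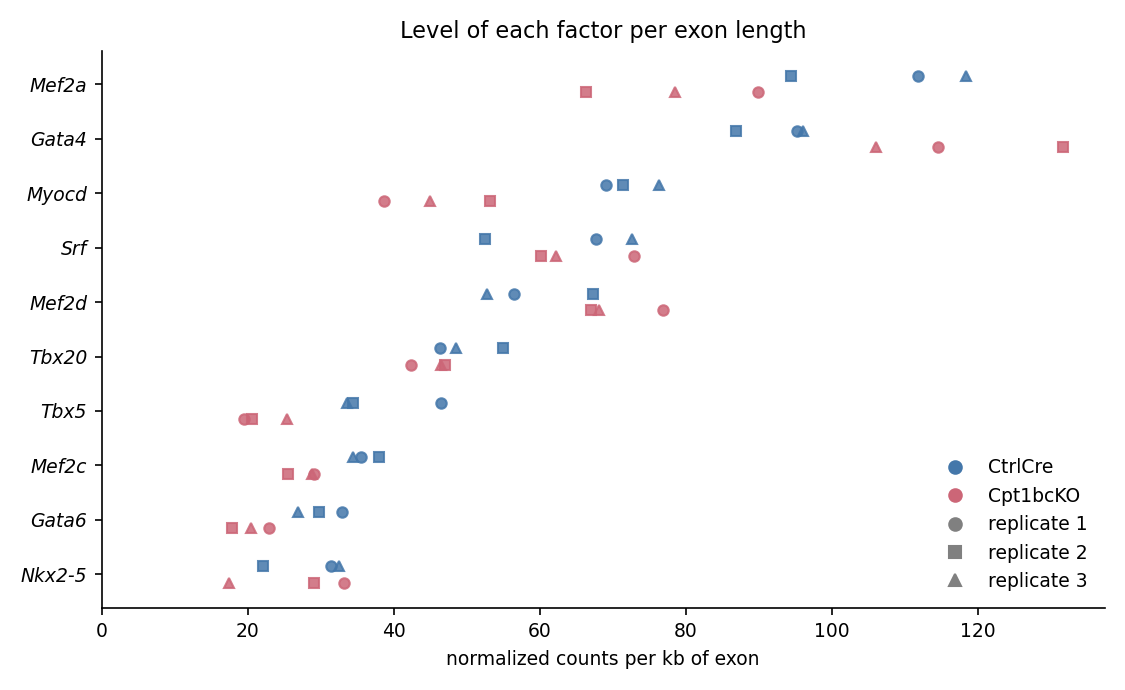
Normalized counts per kilobase of exon (horizontal axis, from 0) of the 10 factors in each CtrlCre (blue) and Cpt1bcKO (red) sample, ordered by the CtrlCre mean. With all exons as the length, *Gata4* and *Mef2a* exchange their places, and *Myocd* lies above *Srf* in CtrlCre and below it in Cpt1bcKO.

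Proteins that work with these factors were examined as a list of 34 symbols that include older aliases, of which 32 were in the table and 31 were tested. With an unadjusted *P* value below 0.05 in limma, 7 were lower and 0 higher, against 7.22% and 6.66% of all genes tested. With an adjusted one 2 were lower and 0 higher, against 0.906% and 0.66%. The median log2FC was −0.16. *Fhl2*, a LIM protein that binds SRF and competes with its coactivators, fell from 3681, 3189 and 2895 normalized counts in CtrlCre to 1543, 1284 and 1504 in Cpt1bcKO samples, with a log2FC of −1.17 (standard error 0.147, adjusted *P* = 0.0039 in limma). *Hdac9*, a class IIa deacetylase that represses MEF2 proteins and is itself a MEF2 target, fell from 323, 215 and 309 to 128, 157 and 116 normalized counts, a log2FC of −1.06 (adjusted *P* = 0.0320 in limma). In both genes every Cpt1bcKO sample lay below every CtrlCre sample. *Hopx*, a small homeodomain protein that restrains SRF, had a log2FC of −0.83 (adjusted *P* = 0.0692 in limma), and *Rock1*, a kinase of the actin pathway that feeds into SRF, one of −0.60 (adjusted *P* = 0.0695 in limma).

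Known targets of the factors were grouped in 5 lists that share genes, written from general knowledge. Without the 10 factors themselves, 67 targets were tested, of which 5 were higher and 23 lower with an unadjusted *P* value below 0.05 in limma, 3 and 6 with an adjusted one, and the median log2FC was −0.27. Among all genes tested, 6.66% were higher and 7.22% lower by the unadjusted *P* value and 0.66% and 0.906% by the adjusted one, so that the count of higher targets was near the background by the unadjusted *P* value but not by the adjusted one. Of the SRF and myocardin targets, 23 of 26 were tested, 1 was higher and 8 were lower with an unadjusted *P* value below 0.05, and the median was −0.25. The higher one was *Acta1*, skeletal α-actin, which rose from 773, 1177 and 814 to 15185, 10270 and 7005 normalized counts (log2FC 3.51, adjusted *P* = 0.000221 in limma). Beside *Fhl2*, the lowest *P* values in the other direction were those of *Acta2*, *Tpm1* and *Egr1*, which had log2FC values of −1.20, −0.81 and −0.64 with adjusted *P* values of 0.0835, 0.105 and 0.143 in limma. Of 21 MEF2 targets, a list that holds *Mef2a*, *Mef2c*, *Mef2d* and *Myocd*, 0 were higher and 6 lower with an unadjusted *P* value below 0.05 (median −0.24), and *Mef2a*, *Mef2c* and *Myocd* account for 3 of these 6. Beside *Hdac9*, *Tcap*, the titin cap of the Z-disc, fell from 3073, 1777 and 2373 to 520, 428 and 1307 normalized counts (log2FC −1.82, adjusted *P* = 0.0354 in limma).

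GATA4 targets differed in both directions. The 18 tested include *Gata6*, *Mef2c*, *Nkx2-5* and *Tbx20*. With an unadjusted *P* value below 0.05 in limma, 4 of the 18 were higher and 7 lower. Of all genes tested, 6.66% were higher and 7.22% lower at this threshold. The median log2FC of the list was −0.34. Of the 7 lower ones, *Gata6* and *Mef2c* account for 2. *Chrm2*, the muscarinic receptor of the heart, fell from 2252, 1971 and 1615 to 393, 343 and 408 normalized counts (log2FC −2.34, adjusted *P* = 0.000151 in limma), and *Corin*, the protease that activates the natriuretic peptide ANP, fell by 0.84 on the log2 scale (adjusted *P* = 0.0483 in limma). *Bcl2*, a survival gene, and *Nppa*, which encodes ANP, rose by 2.45 and 1.87 (adjusted *P* = 0.00338 and 0.00917 in limma). *Ankrd1* and *Nppb*, stress genes of the CM, had log2FC values of 0.72 and 0.66 with adjusted *P* values of 0.159 and 0.308 in limma.

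Of the 18 NKX2-5 targets, 16 were tested, and 2 were higher and 6 lower with an unadjusted *P* value below 0.05 (median −0.19). The shares of all genes tested were 6.66% higher and 7.22% lower. *Myocd*, *Gata6* and *Mef2c*, which this list holds, account for 3 of the lower ones. The lower ones not yet named were *Calr*, a calcium-binding chaperone (−0.76 on the log2 scale, adjusted *P* = 0.192 in limma), and *Slc8a1*, the sodium–calcium exchanger (−0.47, adjusted *P* = 0.209). Of the 18 TBX5 and TBX20 targets, 16 were tested. At the same threshold 2 were higher and 6 lower, against the same 6.66% and 7.22% of all genes tested. Their median was −0.45, the lowest of the 5 lists. *Kcnj2*, an inward rectifier potassium channel, fell from 829, 975 and 674 to 310, 327 and 522 normalized counts (log2FC −1.12, adjusted *P* = 0.0335 in limma). *Pln*, the inhibitor of the calcium pump SERCA2, *Gja1*, which encodes connexin 43, and *Kcnh2*, a repolarizing channel, had log2FC values of −0.85, −0.55 and −0.87 with adjusted *P* values of 0.0678, 0.0928 and 0.108 in limma. Each of these 4 genes was lower in every Cpt1bcKO sample than in any CtrlCre sample.

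**Figure D5:**
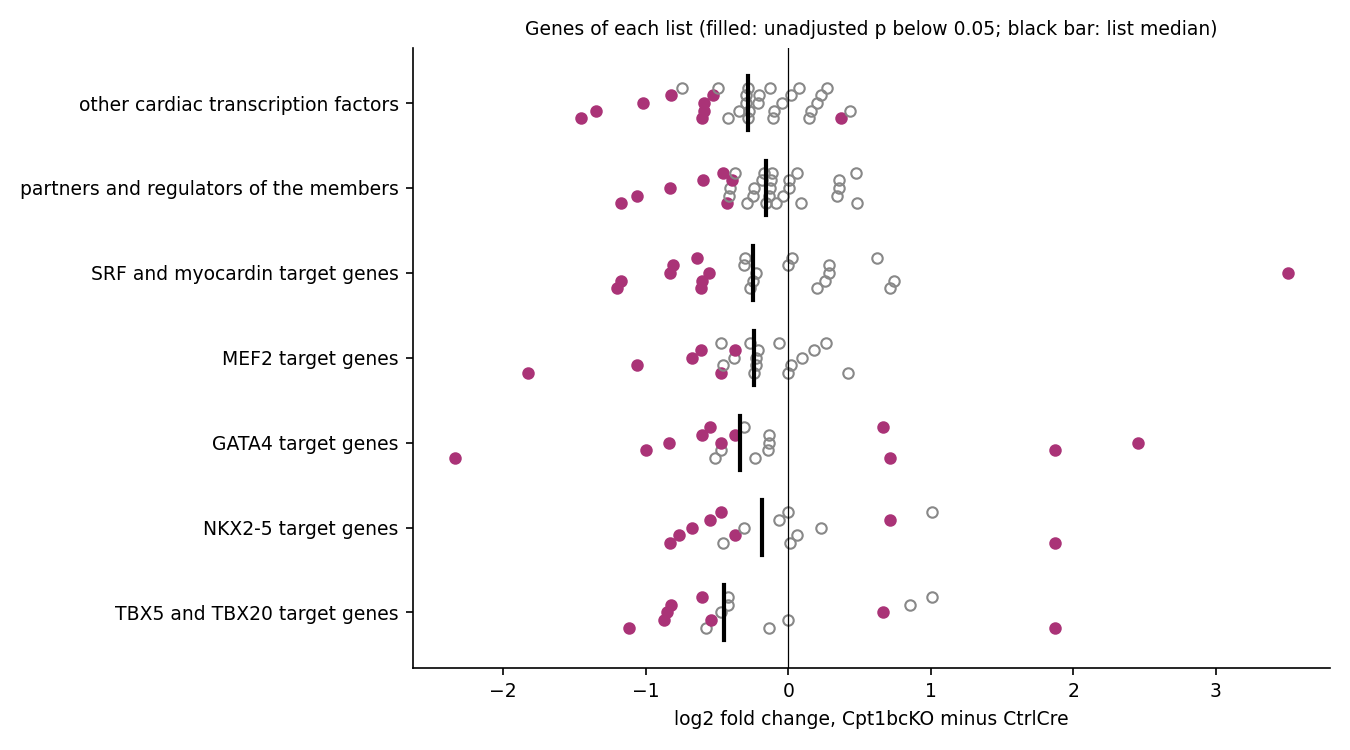
Log2FC, Cpt1bcKO minus CtrlCre (horizontal axis), of each tested gene in the lists of other cardiac factors, partners and targets, filled where the unadjusted *P* value in limma was below 0.05, with the list median as a black bar. All 7 medians lie below 0, and *Acta1*, *Bcl2*, *Nppa* and *Chrm2* are the points farthest from them.

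Genes with the most similar profile over the 6 samples were sought among 6796 others with a mean of at least 50, by Pearson's *r* of log2 values. With 6 samples in 2 groups such values carry the difference between genotypes, so they are given as a description. For *Tbx5* the closest were *Iigp1* (*r* = 0.996), *Camk2n1*, *Stk11*, *Mlf1* and *Kcnh2* (*r* = 0.990), and the most opposed was the proteoglycan gene *Bgn* (*r* = −0.991). For *Myocd* they were AC112680.3 (*r* = 0.993), *Hipk3*, *Epb41l3*, *Tbl1x* and *Hip1* (*r* = 0.977), and *Grpel2* was the most opposed (*r* = −0.987). *Gata4* was nearest to *Miga2* (*r* = 0.985) and *Gata6* to *Eny2* (*r* = 0.995). *Mef2a* was nearest to *Stat5b* (*r* = 0.989) and *Mef2c* to *Cobll1* (*r* = 0.994).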

How the data were processed

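RNA from isolated adult CMs of 3 CtrlCre and 3 Cpt1bcKO samples was sequenced by the authors after stranded total RNA library preparation. Per the methods and processing notes, reads were trimmed (Trimmomatic 0.36), aligned to mm10 (GRCm38.p5) with STAR 2.5.4b and counted per gene with featureCounts 1.6.0, leaving out reads on several genes or regions. The deposited values are a score, that is, counts divided by a size factor for each sample (DESeq2 1.14.1) and rounded by the authors, so no count model was used. Columns of the authors' own comparison (group means, log2 fold changes, p-values) were left aside. Annotation release and use of strand are not given in the sources used here.

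Values were analysed as log2(value + 1) with limma 3.58.1 (lmFit and eBayes with trend, R 4.3.3), for genes with at least 10 in at least 3 samples, with Benjamini–Hochberg adjustment of *P* values over all 11364 genes. Steps were tested on simulated data. Figures were drawn with matplotlib 3.10.9. In each list, named genes are up to 4 per direction with the lowest *P* value below 0.05, with a selection given in the text. The factors, lists and markers were chosen with earlier results of these data known. Alternatives were other scalings, filters, pseudocounts and variance priors, a replicate block, and leaving out samples.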

Additional observations from a re-analysis of the deposited data

How the results depend on the processing

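All 10 factors kept their direction under other filters, pseudocounts, scalings, variance prior and block. Among fits that left out samples, only *Srf* (−0.11 without CtrlCre replicate 2, against 0.12 without CtrlCre replicate 3, −0.058 without Cpt1bcKO replicate 1, and −0.014 without replicate 1 of both groups) and *Nkx2-5* (0.13 without Cpt1bcKO replicate 3) changed sign. *Tbx5*, *Myocd* and *Gata6* had an unadjusted *P* value below 0.05 in limma in all 15 alternatives. The number of lower factors at that threshold ranged from 3 (without Cpt1bcKO replicate 2) to 5 when samples were left out, and that of higher factors from 0 to 1. The latter was 0 with median-of-ratios size factors and with a single variance prior, and 2 (*Gata4* and *Mef2d*) with scaling to the total without mitochondrially encoded and rRNA genes. Over all genes tested, 178 had an adjusted *P* value below 0.05, against 41 with a single variance prior and 40 to 305 when samples were left out (86, 76 and 67 without CtrlCre replicates 1, 2 and 3, 305 and 40 without Cpt1bcKO replicates 1 and 2). At an unadjusted one, leaving out samples gave 434 to 995 higher and 538 to 1213 lower genes, and scaling to the total gave 1221 higher and 500 lower. Scaling to the total moved the medians of the lists of other factors, partners, SRF targets, NKX2-5 targets and T-box targets to −0.17, −0.046, −0.13, −0.074 and −0.34, and those of MEF2 and GATA4 targets to −0.13 and −0.23. The median of other factors was −0.22 without a filter and −0.32 to −0.15 with samples left out, with −0.15 and −0.20 without CtrlCre and Cpt1bcKO replicate 3, and that of partners −0.24 (without Cpt1bcKO replicate 3) to −0.11. Those of MEF2 and NKX2-5 targets ranged from −0.34 to −0.14 and from −0.25 to −0.11, with the value nearest 0 without CtrlCre replicate 1 in both. With at least 10 in every sample, the NKX2-5 and T-box target medians were −0.31 and −0.51. The cause of these shifts was not tested.

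Deviations from the group means correlated between same-numbered samples with *r* = 0.376, 0.255 and 0.0684 across genes. The 3 deviations of a group sum to 0, so these values depend on each other and cannot show whether numbers pair the samples. The sample labels state no pairing. With a replicate block in the model, 603 genes had an adjusted *P* value below 0.05 and 1289 lower genes an unadjusted one. The block gave 3 factors with an adjusted *P* value below 0.05 in limma, which were *Myocd* (0.0157), *Mef2a* (0.0313) and *Tbx5* (0.0399). The values are rounded, so raw counts were not recovered, and *Nkx2-5*, the lowest of the factors, has the widest interval.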

Other observations

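A list of 41 other transcription factors and nuclear cofactors of the heart was examined beside the 10 factors. Of these, 36 were in the table and 32 were tested, and 1 was higher and 8 were lower with an unadjusted *P* value below 0.05 in limma, against 6.66% and 7.22% of all genes tested, with 0 past the adjusted threshold and a median log2FC of −0.28. The lower genes included 3 of the 5 Iroquois homeobox genes on the list. The remaining Iroquois genes, *Irx4* and *Irx1*, had overlapping groups. *Irx4* had a mean of 131 normalized counts in CtrlCre and 152 in Cpt1bcKO samples (log2FC 0.23, adjusted *P* = 0.679 in limma), and *Irx1* 40, 18 and 17 and then 29, 10 and 8 (−0.75, adjusted *P* = 0.571 in limma). *Irx3* had 136, 69 and 94 normalized counts in CtrlCre and 57, 31 and 23 in Cpt1bcKO samples (log2FC −1.45, adjusted *P* = 0.0820 in limma). *Irx2* had 35, 16 and 32 in CtrlCre and 8, 14 and 8 in Cpt1bcKO samples (−1.35, adjusted *P* = 0.181 in limma). *Irx5*, named after its values had been seen, had 69, 29 and 48 and then 27, 25 and 16 (−1.02, adjusted *P* = 0.231 in limma). In *Irx2*, *Irx3* and *Irx5* every Cpt1bcKO sample lay below every CtrlCre sample.

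*Hand2*, a basic helix–loop–helix factor that works with GATA4, had 222, 165 and 225 normalized counts in CtrlCre and 128, 139 and 131 in Cpt1bcKO samples (log2FC −0.60, adjusted *P* = 0.159 in limma). *Hey2*, a repressor that marks compact ventricular muscle, had 42, 47 and 30 in CtrlCre and 22, 20 and 23 in Cpt1bcKO samples (−0.82, adjusted *P* = 0.224 in limma). *Casz1*, a zinc finger partner of TBX5, was the 1 higher gene, with 265, 227 and 271 in CtrlCre and 293, 314 and 384 in Cpt1bcKO samples (0.37, adjusted *P* = 0.353 in limma).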
